A study of Mus musculus with 12 samples.

Results

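A set of C-type lectin receptors of macrophages was described by its expression in bone marrow-derived macrophages (BMDMs), which are macrophages that develop when marrow cells are cultured with mCSF (macrophage colony-stimulating factor). The receptors were listed by name, without a threshold on their values but with earlier results of these data known: *Mgl2*, *Clec10a*, *Mrc1*, *Clec7a*, *Clec4n*, *Clec4d*, *Clec4e*, *Clec4a2*, *Clec5a* and *Clec12a*. These are 10 of 48526 genes in the count table, and all 10 passed the filter of at least 10 counts in at least 3 libraries, with 12421 genes passing in all. The BMDMs came from 3 female C57Bl/6J mice, and on day 7 of culture each mouse's cells received, for 16 hr, no treatment, IL-4 at 100 pg/mL, Wnt3a at 100 ng/mL, or Wnt3a and IL-4 together. The study asked how Wnt signaling changes the response of macrophages to small amounts of IL-4. All cultures, untreated ones included, were grown with mCSF, and no transgene or deletion is named in the labels.

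The columns labelled Wnt3a and Wnt3a+IL4 share reads. In each mouse, 0 of 48526 genes had a Wnt3a count outside 1 to 2 times its Wnt3a+IL4 count, whereas 6681 to 8625 genes fell outside these limits when the columns were taken from different mice. Only the 23413 genes with at least 1 count in the table could fall outside them. For this reason both columns were split, mouse by mouse, into the difference (the Wnt3a column less the Wnt3a+IL4 column) and the remainder (2 times the Wnt3a+IL4 column less the Wnt3a column). If the Wnt3a+IL4 column is the sum of a pair of libraries and the Wnt3a column counts one of them again, both components come from cells given Wnt3a, and one of them also had IL-4. The labels do not say which one did, so every comparison is given for the difference and the remainder as such. Groups below are untreated, IL-4, difference and remainder, with 3 libraries each, 1 from each mouse.

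C-type lectin receptors are membrane proteins with a carbohydrate recognition fold through which macrophages take up glycoproteins and sense fungi, mycobacteria and dying cells. *Mrc1* encodes the mannose receptor CD206, an endocytic receptor widely used as a marker of macrophages exposed to IL-4, and *Mgl2* and *Clec10a* encode the galactose-type lectins MGL2 and MGL1. *Clec7a* encodes Dectin-1, the receptor for fungal β-glucan, which carries its own signaling motif in its tail. *Clec4n* (Dectin-2), *Clec4d* (MCL) and *Clec4e* (Mincle) signal through the Fc receptor γ chain, the kinase Syk and the adaptor Card9, and *Clec5a* signals through the adaptors DAP12 and DAP10. *Clec4a2* (DCIR) and *Clec12a* (MICL) are inhibitory receptors with a tyrosine-based motif that recruits phosphatases.

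Total counts were 13342492 to 17113982 in the untreated and IL-4 libraries, 14171994 to 17453377 in the difference and 15707213 to 16998867 in the remainder. The 11 macrophage markers were above 3 counts in every library, with *Adgre1* (F4/80) at 2139 to 3227 CPM (counts scaled to library size) and *Csf1r* at 4333 to 6153 CPM. Markers of dendritic cells summed to 8.28 to 8.98 CPM in untreated, 7.29 to 8.31 in IL-4, 29.3 to 43.2 in the difference and 31.9 to 47.1 CPM in the remainder libraries, with the defining genes *Flt3* at 0 to 5 counts, *Clec9a* at 0 to 4 and *Xcr1* at 0 to 11 counts over all libraries. The members of this list with the widest spread were *Ly75* (0.69 to 33.7 CPM, 11 to 549 counts) and *Ccr7*, a chemokine receptor outside the lectin family (0.13 to 19.8 CPM, 2 to 319 counts). Of its 6 tested genes, 2 were higher and 2 lower in the difference than in untreated cells, and 3 were higher and 2 lower in the remainder. These are 66.7% and 83.3% of the 6, against 23.2% and 25.3% of all genes tested. The neutrophil list summed to 65.0 to 89.0 CPM in untreated, 100.9 to 109 in IL-4, 102 to 149 in the difference and 74.0 to 97.7 CPM in the remainder libraries. *Mmp8* had the widest spread in it (15.9 to 105 CPM), while *Ly6g* was at 0 to 3 and *Elane* at 0 to 12 counts. Of its 7 tested genes, 1 was higher and 1 lower in the difference than in untreated cells, and 1 was higher and 4 lower in the remainder. These are 28.6% and 71.4% of the 7, with medians of -0.37 and -0.68 on the log2 scale. With IL-4, 0 of the 7 were called (median 0.32). Stromal markers reached 30.2 CPM, lymphoid markers 3.92 CPM, and mast cell and basophil markers 0.55 CPM in the highest library. The part of these other cell types in the results was not tested, and in bulk RNA fewer cells that carry a receptor and less receptor RNA per cell cannot be told apart.

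To compare levels between receptors, CPM were divided by the length of each gene's exons in kb. In untreated BMDMs *Clec4d* was the most abundant, at 519 ± 13.2 CPM per kb (SD, n = 3 here and for all means), followed by *Clec12a* at 88.6 ± 5.0, *Clec4n* at 73.9 ± 13.1 and *Clec7a* at 59.5 ± 7.49. *Clec4a2* stood at 22.3 ± 1.48 CPM per kb. *Clec10a* (8.27 ± 2.03), *Mrc1* (7.91 ± 2.41), *Clec4e* (7.89 ± 2.11) and *Clec5a* (7.36 ± 3.30) formed a group, and *Mgl2* was the lowest at 0.393 ± 0.0305 CPM per kb. The ranges of the 3 libraries overlapped between *Clec12a* and *Clec4n*, between *Clec4n* and *Clec7a*, and within the group from *Clec10a* to *Clec5a*, and they did not overlap at the other steps. *Clec4d* was the most abundant receptor in all 4 groups, and *Mgl2* the least abundant in all but IL-4. With IL-4 the order in CPM per kb was *Clec4d* (393 ± 11.99), *Clec7a* (156 ± 16.7), *Clec12a* (68.4 ± 6.07), *Mrc1* (34.9 ± 6.54), *Clec4n* (34.6 ± 3.63), *Clec4a2* (14.4 ± 2.25), *Clec10a* (11.8 ± 1.91), *Mgl2* (5.54 ± 0.34), *Clec4e* (4.95 ± 0.21) and *Clec5a* (4.80 ± 0.74). Ranges overlapped between *Mrc1* and *Clec4n*, *Clec4a2* and *Clec10a*, and *Clec4e* and *Clec5a*. In the difference *Clec4n* came second (214 ± 28.9 CPM per kb), then *Clec4e* (62.4 ± 7.01), *Clec12a* (60.0 ± 2.69), *Clec7a* (56.5 ± 0.12), *Clec4a2* (19.1 ± 2.41), *Clec5a* (9.19 ± 1.19), *Mrc1* (4.47 ± 0.99), *Clec10a* (3.31 ± 1.18) and *Mgl2* (0.22 ± 0.15), with overlap between *Clec4e* and *Clec12a* and between *Mrc1* and *Clec10a*. *Clec4e* thus stood above *Clec5a* by a wide margin in the difference, while it did not differ from it in untreated or IL-4 libraries beyond their spread. In the remainder *Clec7a* (123 ± 28.8 CPM per kb) and *Clec4n* (103 ± 21.8) overlapped in second place, followed by *Clec4e* (53.3 ± 12.9) and *Clec12a* (45.0 ± 6.30), which also overlapped. *Mrc1* (22.4 ± 1.57), *Clec4a2* (12.1 ± 1.72), *Clec10a* (6.08 ± 1.58), *Clec5a* (3.80 ± 0.63) and *Mgl2* (2.19 ± 0.69 CPM per kb) came after them, and of these neighbours *Clec10a* and *Clec5a* overlapped.

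**Figure D1:**
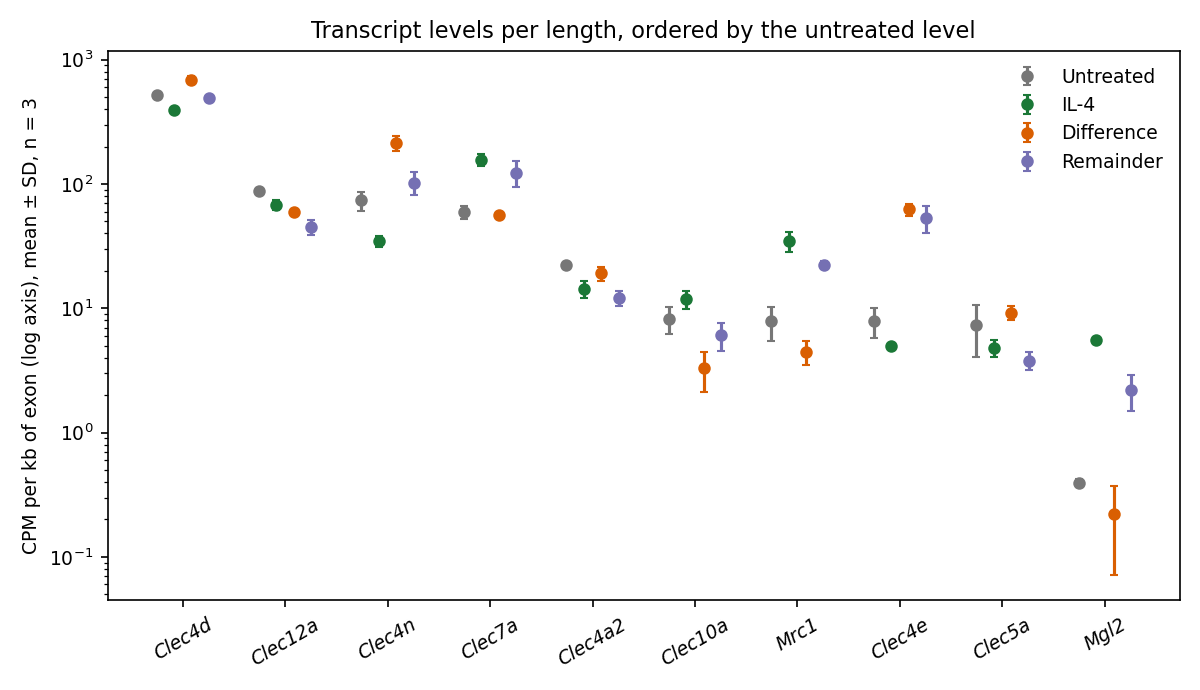
Level of the 10 receptors in each group as CPM per kb of exon on a log axis, with a point for each group mean and SD bars (n = 3). *Clec4d* lies at the top in all 4 groups (519 CPM per kb in untreated cells), and *Mgl2* moves from 0.393 CPM per kb in untreated to 5.54 in IL-4 libraries.

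IL-4 raised the RNA of the mannose receptor, of MGL2 and of Dectin-1, whereas the value for MGL1 did not pass the test. *Mrc1* (chr2:14229392-14332057, mm10, plus strand, ENSMUSG00000026712) was at 47.9, 36.4 and 66.8 CPM in the untreated libraries of mice 1, 2 and 3, at 206, 191 and 269.7 CPM with IL-4, at 27.9, 22.5 and 35.0 in the difference and at 133, 153 and 142 CPM in the remainder. The untreated and difference libraries were low and the IL-4 and remainder libraries high, and every difference library lay below every untreated one. By edgeR's quasi-likelihood test with Benjamini-Hochberg adjustment, *Mrc1* rose with IL-4 by a log2 fold change of 2.14 ± 0.20 (SE; adjusted p = 2.6e-05). It was lower in the difference than in untreated cells by the same test (-0.83 ± 0.20, adjusted p = 0.0089) and higher in the remainder (1.5 ± 0.20, adjusted p = 5.9e-05). The remainder exceeded the difference by 2.33 ± 0.21 on the log2 scale (adjusted p = 1.4e-05). Against the IL-4 library of the same mouse, *Mrc1* stood at 11.8 to 13.5% in the difference and at 52.7 to 79.8% in the remainder. The lower level in the difference lost its call without mouse 1 (-0.86, adjusted p = 0.07) or without the untreated library of mouse 3 (-0.58, adjusted p = 0.053).

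*Mgl2* (chr11:70130329-70137550, plus strand, ENSMUSG00000040950) had the lowest counts of the 10 receptors. It had 14, 13 and 14 counts in untreated cells of mice 1, 2 and 3, which was 0.752, 0.836 and 0.878 CPM. With IL-4 it had 202, 169 and 165 counts (12.1, 10.8 and 11.9 CPM), in the difference 7, 3 and 11 counts, and in the remainder 97, 51 and 70 counts (6.02, 3.13 and 4.6 CPM). All IL-4 and remainder libraries therefore lay above all untreated and difference libraries, and the difference had fewer counts than the untreated library in each mouse. *Mgl2* rose by 3.81 ± 0.30 on the log2 scale with IL-4, a 14.1-fold ratio of mean CPM (edgeR, adjusted p = 4.6e-06), and by 2.47 ± 0.31 in the remainder (adjusted p = 4.1e-05). The difference was at -0.87 ± 0.44 against untreated cells (edgeR, adjusted p = 0.17), a value that passed the test without the difference library of mouse 3 (-1.45, adjusted p = 0.045). Remainder and difference were 3.34 ± 0.35 apart (edgeR, adjusted p = 5.9e-05). In percent of the IL-4 library of the same mouse, *Mgl2* stood at 1.70 to 6.72% in the difference and at 29.0 to 49.8% in the remainder.

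*Clec10a* (chr11:70156197-70170834, plus strand, ENSMUSG00000000318) lies 18646 bases beyond *Mgl2* on the same strand. Its levels were 21.7, 19.6 and 30.7 CPM in untreated cells, 34.7, 28.4 and 39.5 with IL-4, 6.70, 8.67 and 13.4 in the difference and 18.6, 12.7 and 21.7 CPM in the remainder. Untreated libraries overlapped with IL-4 libraries and with the remainder, and only the difference lay below all untreated ones. The log2 fold change with IL-4 was 0.51 ± 0.24 (edgeR, adjusted p = 0.35), with a higher level in 3 of 3 mice. *Clec10a* was lower in the difference by -1.34 ± 0.25 (edgeR, adjusted p = 0.0016), while the remainder was at -0.44 ± 0.24 (adjusted p = 0.20). The remainder stood 0.89 ± 0.26 above the difference without passing the test (edgeR, adjusted p = 0.062), and passed it with the mouse as a replicate block (0.89, adjusted p = 0.0081). Its level was 19.3 to 33.9% of the same-mouse IL-4 level in the difference and 44.5 to 54.9% in the remainder. The count ratio of *Mgl2* to *Clec10a* was 0.035 ± 0.0070 in untreated, 0.34 ± 0.039 in IL-4, 0.047 ± 0.022 in the difference and 0.26 ± 0.057 in the remainder libraries. As to sequence shared between genes, 13.1% of 50-base stretches in *Mgl2* recur in another gene, most of them (12.24% of all) in *Clec10a*, so that some reads of this pair cannot be placed with certainty.

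*Clec7a* (chr6:129461591-129472779, minus strand, ENSMUSG00000079293) was measured at 174, 136 and 161 CPM in untreated cells and at 462, 397 and 377 CPM with IL-4. The difference gave 149 CPM in each of the 3 mice, within the untreated range, and the remainder gave 275, 412 and 288 CPM, all above it. *Clec7a* rose with IL-4 by 1.39 ± 0.14 on the log2 scale (edgeR, adjusted p = 4.5e-05) and was higher in the remainder than in untreated cells by 1.05 ± 0.14 (adjusted p = 6.9e-05). The difference was at -0.07 ± 0.14 (edgeR, adjusted p = 0.75). Remainder and difference were 1.12 ± 0.14 apart (edgeR, adjusted p = 2.6e-04). Against the IL-4 library of the same mouse, *Clec7a* stood at 32.4 to 39.5% in the difference and at 59.5 to 103.7% in the remainder.

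**Figure D2:**
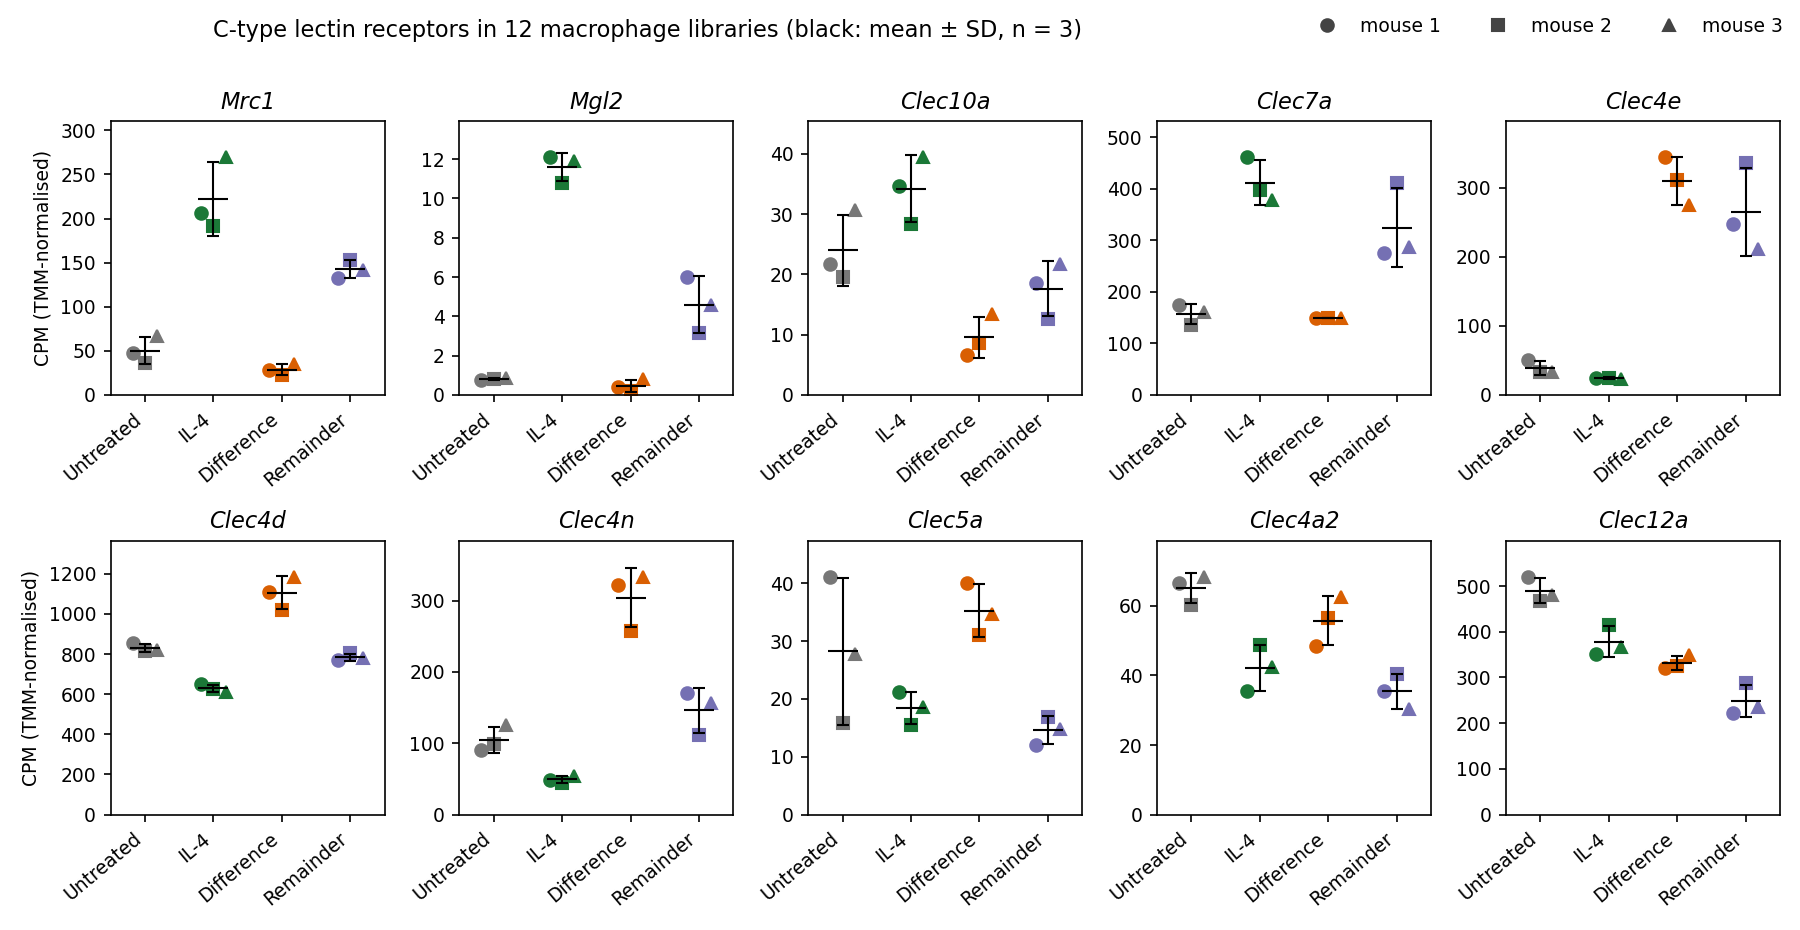
Normalised expression (CPM) of each receptor in the 12 libraries, with a point for each mouse and the mean ± SD in black. *Mrc1*, *Mgl2* and *Clec7a* are high in IL-4 and remainder libraries, and *Clec4e* is high in difference and remainder libraries (275 to 344 and 211 to 335 CPM).

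The promoters of *Mrc1*, *Mgl2* and *Clec7a*, which rose with IL-4, and of *Clec4e*, which of the 10 receptors differed most from untreated cells in the difference and the remainder, are shown to let the stretches around the start sites be compared. Each runs from 250 bases before to 50 bases after the RefSeq start site (GRCm38.p6), 5′ to 3′ on the gene's strand, and capitals mark matches on either strand to 4 motifs: TTC and GAA with 4 bases of any kind between them (STAT6-type), the same with 3 bases between (STAT-type), CTTTGAT (TCF/LEF-type, the motif of the factors through which Wnt signals) and GAGGAA (PU.1-type). The positions are chr2:14229164-14229463 (plus) for *Mrc1*, chr11:70130107-70130406 (plus) for *Mgl2*, chr6:129472730-129473029 (minus) for *Clec7a* and chr6:123289822-123290121 (minus) for *Clec4e*.
Mrc1: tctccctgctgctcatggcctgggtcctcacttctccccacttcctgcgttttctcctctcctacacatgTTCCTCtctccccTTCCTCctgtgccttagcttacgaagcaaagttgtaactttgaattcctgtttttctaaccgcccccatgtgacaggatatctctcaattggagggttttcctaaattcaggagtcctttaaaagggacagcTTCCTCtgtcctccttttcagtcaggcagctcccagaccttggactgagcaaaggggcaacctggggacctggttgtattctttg
Mgl2: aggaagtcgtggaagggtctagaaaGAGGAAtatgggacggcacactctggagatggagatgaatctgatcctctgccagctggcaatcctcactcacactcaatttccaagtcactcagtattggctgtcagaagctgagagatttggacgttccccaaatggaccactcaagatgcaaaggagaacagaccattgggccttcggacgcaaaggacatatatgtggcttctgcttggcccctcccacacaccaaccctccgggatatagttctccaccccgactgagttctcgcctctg
Clec7a: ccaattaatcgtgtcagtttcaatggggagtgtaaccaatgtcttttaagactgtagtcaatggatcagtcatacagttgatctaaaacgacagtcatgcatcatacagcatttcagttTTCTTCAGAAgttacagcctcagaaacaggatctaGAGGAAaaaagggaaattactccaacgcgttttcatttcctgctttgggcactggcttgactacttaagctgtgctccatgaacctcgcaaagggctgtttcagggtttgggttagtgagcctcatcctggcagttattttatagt
Clec4e: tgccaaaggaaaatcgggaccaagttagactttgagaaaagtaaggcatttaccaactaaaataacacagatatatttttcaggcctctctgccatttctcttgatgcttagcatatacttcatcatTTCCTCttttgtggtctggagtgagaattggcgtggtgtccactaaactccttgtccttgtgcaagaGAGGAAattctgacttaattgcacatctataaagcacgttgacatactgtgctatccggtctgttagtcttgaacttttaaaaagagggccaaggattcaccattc
Of the 10 receptors, 8 had a promoter in the RefSeq table used here, and *Clec10a* and *Clec4n* had none in it. The STAT6-type motif was present in *Clec7a* (TTCTTCAGAA, bases -131 to -122 from the start site) and in *Clec5a* (bases -98 to -89), as in 6.94% of 32817 promoters of this length. The *Mrc1* and *Mgl2* windows did not hold these letters. *Clec7a* has another RefSeq window (chr6:129472736-129473035), not printed here, with the STAT6-type motif at bases -125 to -116 and the PU.1-type motif at -90. The STAT-type motif was in the *Clec4a2* window alone among the 8 (8.29% of all promoters), and the TCF/LEF-type motif in 0 of the 8 (3.73% of all). The PU.1-type motif was in 7 of the 8, all but *Clec4a2*, against 28.27% of all promoters. *Mrc1* held it at bases -180, -167 and -35, *Mgl2* at -225, *Clec7a* at -96, and *Clec4e* at -123 and -56. A match is a match of letters and not a measured binding site.

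The 3 receptors that signal through the Fc receptor γ chain lie next to each other on chromosome 6. Mincle RNA was higher in both components than in untreated cells, Dectin-2 and MCL RNA was highest in the difference, and IL-4 alone lowered the latter pair. *Clec4e* (chr6:123281789-123289870, minus strand, ENSMUSG00000030142) was at 51.3, 33.4 and 32.9 CPM in untreated cells and at 25.3, 25.1 and 23.4 CPM with IL-4. It was at 344, 311 and 275 CPM in the difference and at 248, 335 and 211 CPM in the remainder, so that all 6 libraries of these components lay far above all others. *Clec4e* rose by 2.98 ± 0.19 on the log2 scale in the difference (edgeR, adjusted p = 8.3e-08) and by 2.75 ± 0.19 in the remainder (adjusted p = 1.1e-07). The remainder was at -0.23 ± 0.17 against the difference, with overlapping values (edgeR, adjusted p = 0.51). With IL-4 alone the log2 fold change was -0.68 ± 0.19 (edgeR, adjusted p = 0.07), lower in 3 of 3 mice without overlap, and the test was passed with the mouse as a replicate block (-0.66, adjusted p = 0.047). By DESeq2 this fall was called as well (-0.68, adjusted p = 0.0071).

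*Clec4n* (chr6:123229843-123247021, plus strand, ENSMUSG00000023349) was at 90.4, 98.5 and 126 CPM in untreated cells, at 48.6, 44.4 and 54.6 with IL-4, at 322, 257 and 334 in the difference and at 169.9, 111 and 157 CPM in the remainder. The IL-4 libraries lay below all untreated ones and the difference above all others, while the remainder overlapped with untreated cells. *Clec4n* fell with IL-4 by 1.09 ± 0.16 on the log2 scale (edgeR, adjusted p = 0.0013) and rose by 1.54 ± 0.16 in the difference (adjusted p = 8.5e-06). Its value in the remainder was 0.48 ± 0.16 (edgeR, adjusted p = 0.041). That call was lost without mouse 1 (0.26, adjusted p = 0.41) or mouse 3 (0.58, adjusted p = 0.10), without the untreated library of mouse 1 (0.39) or 2 (0.44), without the remainder library of mouse 1 (0.36) or 3 (0.42), with total counts as the scaling (0.37), and with only the groups compared in the fit (0.47, adjusted p = 0.096). The remainder was at -1.06 ± 0.16 against the difference (edgeR, adjusted p = 0.0012). Without mouse 3, neither the fall with IL-4 (-1.04, adjusted p = 0.069) nor the lower level in the remainder than in the difference (-1.04, adjusted p = 0.059) passed the test. The count ratio of *Mrc1* to *Clec4n* was 0.48 ± 0.093 in untreated, 4.5 ± 0.38 in IL-4, 0.093 ± 0.010 in the difference and 1.02 ± 0.31 in the remainder libraries.

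*Clec4d* (chr6:123262111-123275265, plus strand, ENSMUSG00000030144) changed by less but with little spread between mice. Its levels were 855, 816 and 819.8 CPM in untreated cells, 649, 625 and 611 with IL-4, 1111, 1021 and 1186 in the difference and 771, 804 and 778 CPM in the remainder. The 4 groups did not overlap, with the difference on top and IL-4 at the bottom. *Clec4d* fell by 0.40 ± 0.07 with IL-4 (edgeR, adjusted p = 0.0061) and rose by 0.41 ± 0.07 in the difference (adjusted p = 9.7e-04), on the log2 scale. The remainder was at -0.08 ± 0.07 against untreated cells (edgeR, adjusted p = 0.45) and at -0.50 ± 0.07 against the difference (adjusted p = 0.0011). Without mouse 3, the fall with IL-4 (-0.40, adjusted p = 0.23), the rise in the difference (0.36, adjusted p = 0.075) and the lower level in the remainder than in the difference (-0.43, adjusted p = 0.16) did not pass the test, and without mouse 2 the first of these did not either (-0.42, adjusted p = 0.054). The count ratio of *Clec4e* to *Clec4d*, whose genes are 6523 bases apart on opposite strands, was 0.047 ± 0.011 in untreated and 0.039 ± 0.00091 in IL-4 libraries, against 0.28 ± 0.044 in the difference and 0.34 ± 0.074 in the remainder.

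These genes belong to a row of 9 lectin genes that spans 368.0 kb, from *Clec4a1* to *Clec4e*. *Clec4a4* (0 to 5 counts) and *Clec4b2* (0 to 3 counts) were near the floor of detection and were not tested. *Clec4a1* had log2 fold changes of -0.30 with IL-4, 0.10 in the difference and -0.11 in the remainder. Those of *Clec4a3* were 0.39, 0.01 and 0.34, and none of the values of either gene passed the test. *Clec4b1* was lower in the difference (-2.72, edgeR adjusted p = 4.2e-07) and in the remainder (-2.38, adjusted p = 7.9e-07) than in untreated cells, with 0.49 under IL-4 (adjusted p = 0.15). *Clec4b1* was a gene of low counts, 10 to 159 over the libraries. Its mean level was 6.38 ± 0.88 CPM in untreated cells, 0.95 ± 0.25 in the difference and 1.22 ± 0.12 CPM in the remainder. Of the 50-base stretches in *Clec4b1*, 8.68% are shared with *Clec4a2*. Large values in opposite directions thus stood within one row of genes, with *Clec4b1* lower and *Clec4e* higher in both components.

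**Figure D3:**
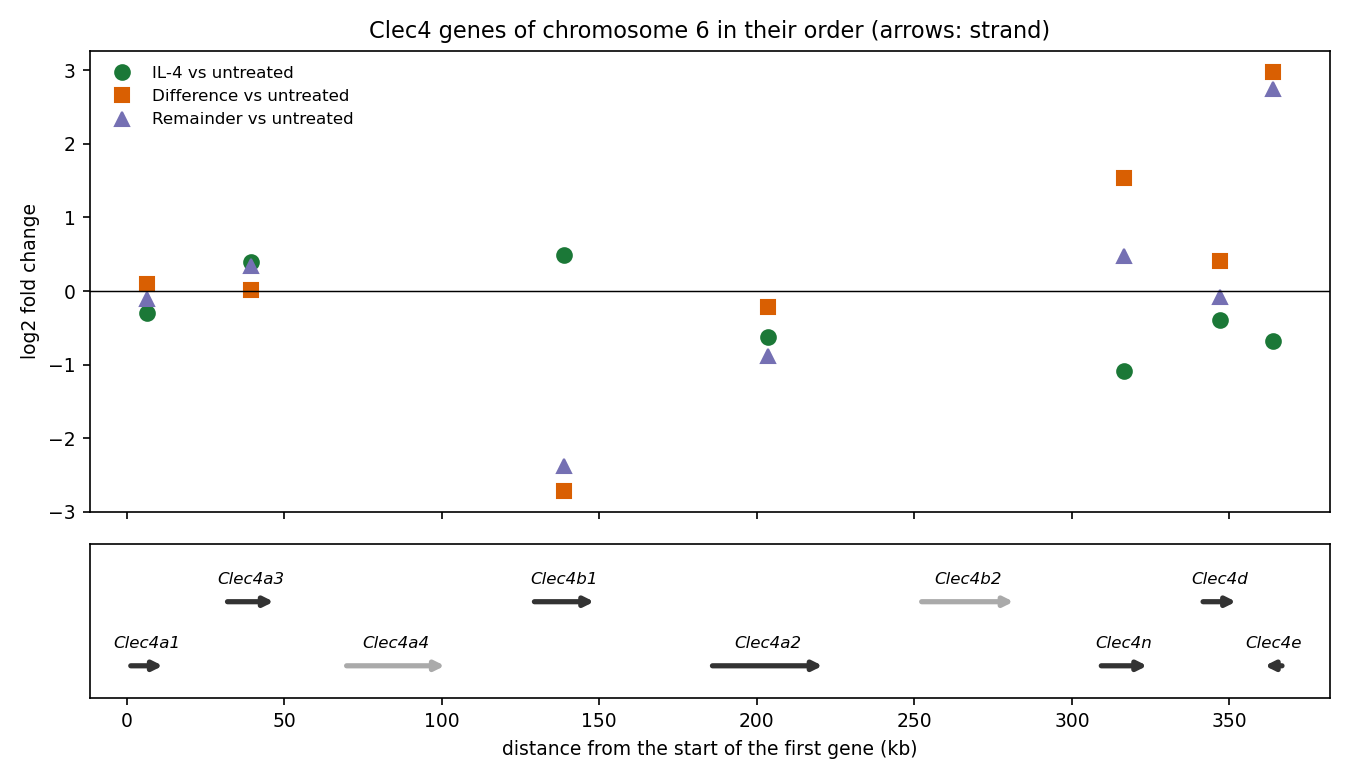
Log2 fold changes of the tested lectin genes of the chromosome 6 row, without error bars, placed by distance in kb from the first gene. *Clec4e*, at the far end, stands at 2.98 in the difference and 2.75 in the remainder, while *Clec4b1* stands at -2.72 and -2.38.

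The inhibitory receptors *Clec12a* and *Clec4a2* were lower in the remainder than in untreated cells. *Clec12a* (chr6:129342691-129365303, plus strand, ENSMUSG00000053063; 96287 bases from *Clec7a*) was at 521, 468 and 479.9 CPM in untreated cells, at 351, 416 and 367 with IL-4, at 322, 324 and 349 in the difference and at 223, 288 and 235 CPM in the remainder. All untreated libraries lay above all others, and all remainder libraries lay below the difference. *Clec12a* was lower than in untreated cells in the difference (log2 fold change -0.56 ± 0.10, edgeR, adjusted p = 9.0e-04) and in the remainder (-0.98 ± 0.10, adjusted p = 6.0e-06). With IL-4 the value was -0.37 ± 0.10 (edgeR, adjusted p = 0.058), which passed the test without mouse 2 (-0.49, adjusted p = 0.026) or its IL-4 library (-0.46). By DESeq2 the fall with IL-4 was called with all libraries in the fit (-0.38, adjusted p = 0.0098). The remainder was at -0.42 ± 0.10 against the difference (edgeR, adjusted p = 0.027). That call was lost without mouse 1 (-0.36) or mouse 3 (-0.34), without any single difference library (-0.43, -0.43 and -0.38 without mouse 1, 2 and 3) and without the remainder library of mouse 1 (-0.34) or 3 (-0.38), as it was with only the groups compared in the fit (-0.42, adjusted p = 0.069).

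*Clec4a2* (chr6:123106428-123143999, plus strand, ENSMUSG00000030148) was at 66.7, 60.2 and 68.4 CPM in untreated cells, at 35.5, 48.6 and 42.4 with IL-4, at 48.4, 56.5 and 62.5 in the difference and at 35.6, 40.4 and 30.3 CPM in the remainder. IL-4 and remainder libraries lay below all untreated ones, and the difference overlapped with them. The log2 fold change was -0.63 ± 0.13 with IL-4 (edgeR, adjusted p = 0.015), -0.22 ± 0.13 in the difference (adjusted p = 0.24) and -0.88 ± 0.13 in the remainder (adjusted p = 2.1e-04). The remainder was at -0.65 ± 0.13 against the difference (edgeR, adjusted p = 0.01). The IL-4 call was lost without mouse 1 (-0.49, adjusted p = 0.11), without mouse 3 (-0.61, adjusted p = 0.26), and without the untreated (-0.61 and -0.60) or IL-4 library (-0.52 and -0.65) of either. The remainder against the difference lost its call without mouse 3 (-0.46, adjusted p = 0.42) or its difference (-0.57) or remainder library (-0.55). Other genes hold 6.83% of the 50-base stretches in *Clec4a2*, and *Clec4a4* holds 3.85%.

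*Clec5a* (chr6:40574894-40585821, minus strand, ENSMUSG00000029915) varied most, relative to its mean, between untreated cultures, at 41.2, 15.8 and 27.8 CPM. It was at 21.2, 15.5 and 18.5 CPM with IL-4, at 40.1, 31.1 and 34.7 in the difference and at 12.05, 16.9 and 14.8 CPM in the remainder. Untreated libraries overlapped with each of the other groups, while the difference lay above all IL-4 and remainder libraries. Against untreated cells the log2 fold change was -0.62 ± 0.26 with IL-4 (edgeR, adjusted p = 0.26), 0.32 ± 0.25 in the difference (adjusted p = 0.40) and -0.96 ± 0.26 in the remainder (adjusted p = 0.014, lower in 2 of 3 mice). The call in the remainder was lost without mouse 1 (-0.46, adjusted p = 0.21) or mouse 3 (-0.98, adjusted p = 0.17), and without the untreated (-0.58) or remainder library (-0.83) of mouse 1, and with only the groups compared in the fit (-0.97, adjusted p = 0.055). Without the untreated library of mouse 1, the difference passed the test (0.69, adjusted p = 0.04), and without mouse 2 (-0.81) or its untreated library (-0.92) the value with IL-4 did. The remainder was at -1.28 ± 0.26 against the difference (edgeR, adjusted p = 0.01), a call lost without mouse 3 (-1.30, adjusted p = 0.28) or the remainder library of mouse 1 (-1.15).

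Counted over the 10 receptors, IL-4 changed 6 by edgeR's quasi-likelihood test at an adjusted p under 0.05, against 3.4% of all 12421 genes tested. *Mgl2*, *Mrc1* and *Clec7a* rose (3 of 10, against 2.31% of all genes) and *Clec4n*, *Clec4d* and *Clec4a2* fell (3 of 10, against 1.09%). The median log2 fold change of the 10 was -0.38, against -0.003 over all genes. Without mouse 3 the count was 3 of 10. In the difference against untreated cells 6 of 10 passed the test, against 23.2% of all genes, with *Clec4e*, *Clec4n* and *Clec4d* higher (against 11.8% of all genes) and *Clec10a*, *Mrc1* and *Clec12a* lower (against 11.4%). In the remainder against untreated cells 8 of 10 passed, against 25.3% of all genes. Here *Clec4e*, *Mgl2*, *Mrc1*, *Clec7a* and *Clec4n* were higher (5 of 10, against 13.6%) and *Clec4a2*, *Clec5a* and *Clec12a* lower (3 of 10, against 11.7%). Both comparisons share the untreated libraries, as does that of IL-4. The median over the 10 receptors was -0.15 in the difference and 0.20 in the remainder, against -0.012 and -0.024 over all genes. The libraries of both groups did not overlap for 8 receptors with IL-4 (19.8% of all genes), for 6 in the difference (39.2%) and for 7 in the remainder (35.6%).

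**Figure D4:**
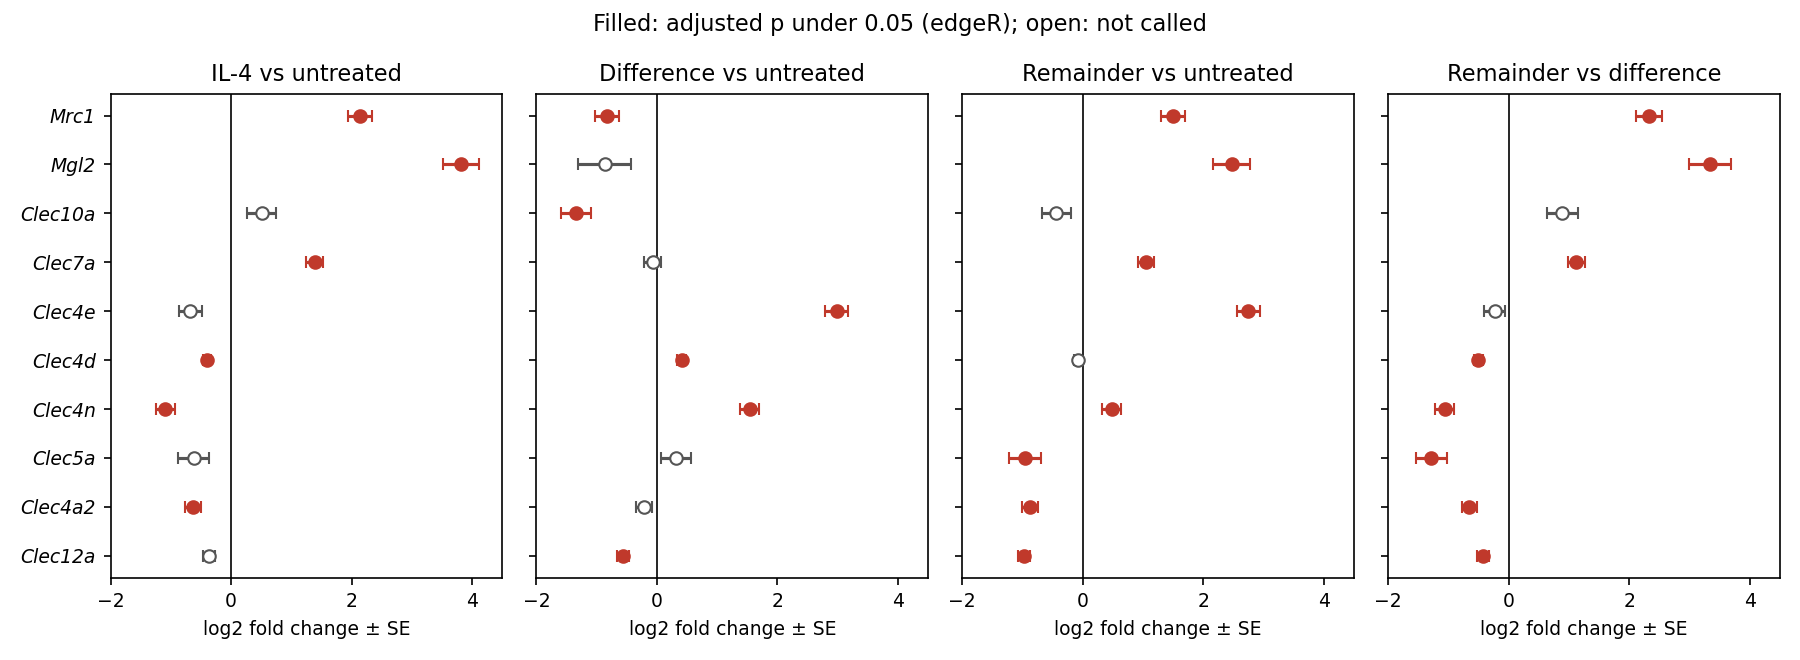
Log2 fold changes (± SE, edgeR) of the 10 receptors in 4 comparisons, filled where the adjusted p was under 0.05. Filled points number 6 for IL-4, 6 for the difference and 8 for the remainder, each against untreated cells, and 8 for the remainder against the difference.

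The remainder and the difference were also compared directly with each other. Of the 10 receptors, 8 passed the test, against 5.25% of all genes tested. *Mgl2*, *Mrc1* and *Clec7a* were higher in the remainder (3 of 10, against 2.87% of all genes), and *Clec4n*, *Clec4d*, *Clec4a2*, *Clec5a* and *Clec12a* were lower (5 of 10, against 2.38%). Without mouse 3 the count was 3 of 10, and the share of all genes in that setting is not given here. The groups of libraries did not overlap for 8 of 10 receptors, against 22.4% of all genes. This gap was set beside that between IL-4 and untreated cells, with which it has no library in common. For each of the 10 receptors both gaps had the same sign, as for 55.7% of all 12421 genes, and across the receptors the log2 fold changes had a Pearson's r of 0.98, against 0.34 across all genes. This r describes 10 genes, of which *Mgl2* and *Mrc1* lie farthest out, and genes are not independent replicates.

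**Figure D5:**
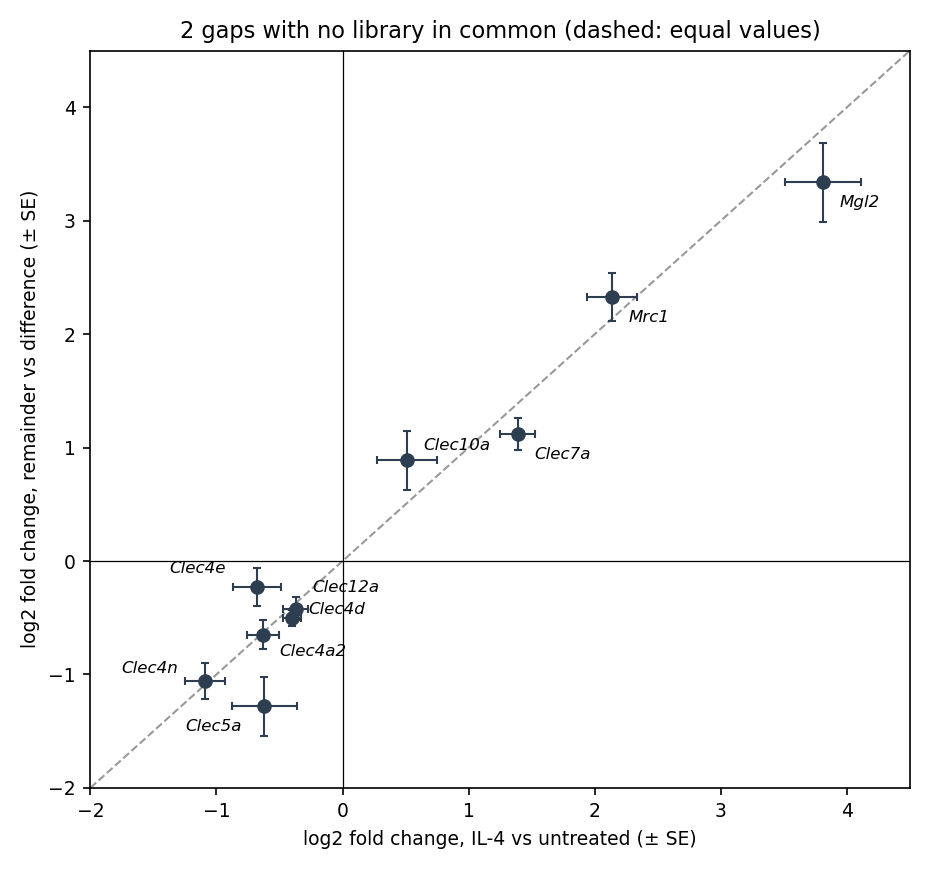
Log2 fold change of each receptor in the remainder against the difference, plotted over that of IL-4 against untreated cells, with SE bars and a dashed line where both are equal. *Mgl2* (3.81 and 3.34) and *Mrc1* (2.14 and 2.33) lie near the line at the upper right, and *Clec5a* (-0.62 and -1.28) lies below it.

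Whether the 2 gaps differed was tested as an interaction for both possible assignments. With the difference taken as Wnt3a alone and the remainder as Wnt3a with IL-4, 0 of 10 receptors passed edgeR's test, 0 of 10 had an unadjusted p under 0.05, and DESeq2 also called 0, against 0.105% of all genes called by edgeR. The interaction terms ran from -0.66 (*Clec5a*) to 0.45 (*Clec4e*) on the log2 scale. With the assignment reversed, 10 of 10 passed, against 7.33% of all genes, and the count was 6 of 10 without mouse 3. The terms then ran from -7.15 (*Mgl2*) to 2.15 (*Clec4n*). Each such term is the 2 gaps added together with the sign turned, so gaps of the same sign give a large term by construction. A p that misses the threshold does not show that the gaps were equal, and neither count was used to assign the components.

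Measured against IL-4 alone, 9 of 10 receptors differed in the difference, against 20.3% of all genes. *Mgl2* (-4.68), *Mrc1* (-2.97), *Clec10a* (-1.85) and *Clec7a* (-1.47) were lower, and *Clec4e* (3.66), *Clec4n* (2.63), *Clec5a* (0.94), *Clec4d* (0.82) and *Clec4a2* (0.40) were higher, as log2 fold changes. The 4 lower receptors stand beside 10.3% of all genes and the 5 higher ones beside 10.0%. The adjusted p of *Clec4a2* was 0.045 by edgeR, and 0.052 with the mouse as a replicate block. *Clec12a* was at -0.19 (edgeR, adjusted p = 0.22). The call of *Clec4a2* was lost without mouse 1 (0.38) or mouse 3 (0.34), without the IL-4 library of mouse 1 (0.29) or 3 (0.42), without the difference library of mouse 2 (0.39) or 3 (0.32), and with total counts as the scaling (0.36, adjusted p = 0.089). That of *Clec5a* was lost without mouse 3 (0.97), without the IL-4 library of mouse 2 (0.83) or 3 (0.96) and without the difference library of mouse 1 (0.84).

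In the remainder, 7 of 10 receptors differed from IL-4 alone, against 20.3% of all genes. *Clec4e* (3.43), *Clec4n* (1.57) and *Clec4d* (0.32) were higher, 3 of 10 against 10.6% of all genes. *Mgl2* (-1.34), *Clec10a* (-0.96), *Mrc1* (-0.64) and *Clec12a* (-0.60) were lower, 4 of 10 against 9.67%, and *Clec7a* was at -0.34 ± 0.14 (edgeR, adjusted p = 0.098). *Clec7a* passed without mouse 2 (-0.55, adjusted p = 0.0039) or its remainder library (-0.53). *Mrc1* did not pass without mouse 1 (-0.65, adjusted p = 0.13), mouse 3 (-0.46, adjusted p = 0.12), the IL-4 library of mouse 3 (-0.46) or the remainder library of mouse 1 (-0.58) or 3 (-0.64). *Clec10a* did not pass without mouse 1 (-0.99, adjusted p = 0.053) or the IL-4 library of mouse 3 (-0.82, adjusted p = 0.064), nor *Clec4d* without mouse 3 (0.32, adjusted p = 0.12). Against IL-4 the libraries did not overlap for 9 receptors in the difference (38.6% of all genes) and for 7 in the remainder (35.9%).

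Of 50 other C-type lectin-like receptors, 19 passed the count filter. IL-4 changed 1 of the 19 (5.3%, against 3.4% of all genes), *Cd302*, a small endocytic lectin (-0.45 ± 0.08, edgeR, adjusted p = 0.0043). In the difference against untreated cells 4 of the 19 were higher and 7 lower, beside 11.8% and 11.4% of all genes. In the remainder 2 of the 19 were higher and 7 lower, beside 13.6% and 11.7%, so that the higher share was no larger than that of all genes. *Ly75* (DEC-205, an endocytic receptor known from dendritic cells) rose from 0.806 ± 0.19 CPM in untreated cells to 28.0 ± 5.15 in the difference and 25.0 ± 7.80 CPM in the remainder, by log2 fold changes of 5.12 and 4.95 (3.61% of its exon bases overlap a gene on the other strand, *Gm13571*). *Cd207* (langerin) went from 5.90 ± 0.49 CPM to 1.00 ± 0.40 and 1.85 ± 0.64 CPM, with log2 fold changes of -2.53 and -1.67. *Cd209a* was at 1.09 ± 0.35 CPM in untreated cells and at 0 in the 3 difference libraries. *Ly75*, *Cd209a* and *Clec9a* are also among the dendritic cell markers given above, of which *Ly75* and *Ccr7*, no lectin, varied most. Between the remainder and the difference 3 of the 19 were lower (beside 2.38% of all genes), among them *Cd69*, the early activation lectin (-1.61), and *Cd302* (-0.50).

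All 41 genes of a list for C-type lectin receptor signaling passed the count filter. With IL-4, 2 of the 41 rose and 5 fell. *Egr2*, a transcription factor downstream of these receptors, rose from 8.80 ± 1.70 to 45.7 ± 1.73 CPM (log2 fold change 2.38 ± 0.12, edgeR, adjusted p = 8.9e-08), and *Cblb*, a ubiquitin ligase that acts on Dectin receptors and Syk, rose by 0.67 ± 0.07. Whether these rises ran through the lectin receptors was not tested. In the difference against untreated cells 6 were higher and 7 lower, and in the remainder 5 were higher and 9 lower. *Src*, a tyrosine kinase, was higher in both, by 2.53 ± 0.18 and 2.69 ± 0.18, and *Cybb*, the catalytic subunit of the phagocyte NADPH oxidase, was higher in the difference by 1.00 ± 0.14. Between the remainder and the difference 3 were higher and 3 lower, led by *Egr2* (2.54 ± 0.13) and *Cblb* (0.65 ± 0.07) and, on the lower side, *Lyn*, a kinase that phosphorylates inhibitory receptors (-0.51 ± 0.07). Of the 50-base stretches in *Lyn*, 18.28% are shared with other genes, so its counts are uncertain. *Egr2* was at 4.80 ± 0.30 CPM in the difference and at 27.9 ± 0.87 CPM in the remainder. Over this list the share called was 17.1% with IL-4, 31.7% in the difference, 34.1% in the remainder and 14.6% between the components, against 3.4%, 23.2%, 25.3% and 5.25% of all genes tested, and the median log2 fold changes were -0.02, -0.03, -0.10 and -0.06.

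The genes most like each receptor were those with the highest Pearson's r of log2 CPM over the 12 libraries, among 9285 genes. For *Mgl2* these were *Sdc4* (0.977), *Egr2* (0.968) and *Dhrs9* (0.966), and for *Mrc1* they were *Ptgs1* (0.969), *Ado* (0.966) and *Dhrs9* (0.965). *Clec7a* was most like *Abcd2* (0.969) and *Tmem26* (0.958), and *Clec10a* most like *Slc17a5* (0.928). *Clec4e* had the closest companions, *Ms4a6b* (0.996), *Rtp4* (0.994) and *Apobec3* (0.992). *Clec4n* was most like *Cd14* (0.972), *Clec4d* like *Cd302* (0.979) and *Pilra* (0.977), *Clec12a* like *Fam107b* (0.964), *Clec5a* like *Ptprc* (0.942) and *Clec4a2* like *Rnf113a2* (0.91). These values describe 12 libraries that share 3 mice and 4 conditions, and have no test.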

How the data were processed

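BMDMs of 3 mice were analysed by RNA-seq. The authors deposited raw counts per gene without normalization, made with HTSeq-count 0.11.1 from single reads that trimmomatic 0.36 had trimmed and STAR 2.6.0 had mapped to mm10. The strand setting and the treatment of reads with several matches were not given in the sources used here. Of 48526 Ensembl identifiers, 48058 were paired with a symbol. Positions and overlaps came from GENCODE (GRCm38) and promoters from RefSeq (GRCm38.p6).

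The difference and remainder were solved from the Wnt3a and Wnt3a+IL4 counts of each mouse. The 12421 genes that reached 10 counts in 3 or more of 12 libraries were tested in a single fit with edgeR 4.0.16 (quasi-likelihood, TMM, no term for the mouse; R 4.3.3) and called at a Benjamini-Hochberg adjusted p under 0.05. The SE was derived from the log2 fold change and its F. CPM are TMM-normalised; log2 CPM used a prior count of 2. The test was tried on simulated data. Alternatives were DESeq2 1.42.0, its size factors, total counts, genes with at least 1 count, only the groups compared, the mouse as replicate block, the deposited columns, and each mouse or library left out. The replicates are mice; each mouse contributed 1 sample per group, which pairs the samples. Deviations from group means of same-mouse libraries correlated between -0.417 and 0.454 in 18 pairs, 6 of them over 0.1.

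The receptors and gene lists were chosen with earlier results of these data known. Named genes were all receptors, up to 3 highest and 3 lowest called genes of 2 lists per comparison whose higher group averaged 1 CPM or more, and the genes most like each receptor (at least 5 CPM); *Clec4a1*, *Clec4a3*, *Clec4a4*, *Clec4b2* and the markers were named for position or cell type.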

Additional observations from a re-analysis of the deposited data

Results flagged for a closer look

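Under one of the possible assignments, in which the remainder is Wnt3a alone and the difference is Wnt3a with IL-4, the gap between both components differed from the gap between IL-4 and untreated cells by an interaction test in all 10 receptors (edgeR's quasi-likelihood test with Benjamini-Hochberg adjustment). The interaction terms on the log2 scale were -7.15 for *Mgl2* (adjusted p = 2.6e-07), -4.47 for *Mrc1* (2.6e-07), -2.52 for *Clec7a* (1.8e-06) and -1.40 for *Clec10a* (0.024), all negative. They were positive for the others, at 2.15 for *Clec4n* (adjusted p = 2.9e-05), 1.9 for *Clec5a* (0.0045), 1.28 for *Clec4a2* (4.9e-04), 0.90 for *Clec4d* (7.1e-05), 0.90 for *Clec4e* (0.044) and 0.79 for *Clec12a* (0.0026). Each term is the gap from difference to remainder plus that from untreated to IL-4, with the sign turned. Both gaps had the same sign in all 10 receptors, so these terms restate the gaps given above. Of all genes, 7.33% were called under this assignment. Under the opposite assignment the same test called 0 of 10, against 0.105% of all genes, and which assignment holds is not given by the labels.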

How the results depend on the processing

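Of 1380 repeats of single receptor values under other settings, 1214 kept their direction and side of the threshold, 97 lost and 34 gained a call, and 35 turned direction. Of 44 calls in the 6 comparisons between groups, 27 held with every mouse and library left out in turn. The number of receptors called with IL-4 was 10 of 10 when all genes with at least 1 count were tested. More genes entered this fit (23413 against 12421), and its p-values were far smaller at similar fold changes. For *Mrc1* the adjusted p by edgeR was 8.7e-90, against 2.6e-05 in the main fit, at log2 fold changes of 2.13 and 2.14. The reason was not tested, so the 10 of 10 is not taken as firmer evidence. With a mouse or library left out, the number of receptors called with IL-4 ranged from 3 to 8. Against untreated cells it was 5 to 7 in the difference and 6 to 8 in the remainder. The remainder against the difference gave 3 to 9. Against IL-4 the difference gave 7 to 9 and the remainder 5 to 8, and the interactions gave 0 and 6 to 10. Over all genes, each of these fits called fewer with IL-4 than the 422 of the main fit, with 77 without mouse 3. Between remainder and difference, 97 were called without mouse 3, against 652 in the main fit. More than 652 were called without mouse 2 or its remainder library. Shares of all genes in the other settings are not given here. In the deposited columns, which share reads, the counterpart of remainder against difference called 0 by edgeR (0 at an unadjusted p under 0.05, 0 by DESeq2), and the interaction with the difference as Wnt3a alone called 3, against 1 with all genes of at least 1 count. The replicate block gave 7 calls with IL-4 and 9 for the remainder against the difference, gaining *Clec4e* (-0.66) and *Clec10a* (0.89), and lost *Clec4a2* (0.41) in the difference against IL-4; it changed no other call. *Clec7a* in the difference ranged from -0.17 to 0.00 with a mouse or library left out. Interaction terms of that first assignment turned sign in the same way for *Mgl2* (-0.85 to 0.11), *Mrc1* (-0.06 to 0.39), *Clec4n* (-0.11 to 0.22), *Clec4a2* (-0.26 to 0.14) and *Clec12a* (-0.14 to 0.04), and for *Clec4a2* with total counts (0.01). In the deposited columns the sign turned for *Mgl2* (1.14), *Mrc1* (0.39), *Clec7a* (0.39) and *Clec5a* (-0.02) in Wnt3a, for *Clec4d* (0.17) in Wnt3a+IL4, for *Clec4a2* (0.10) and *Clec5a* (0.43) in Wnt3a+IL4 against IL-4, and in the interaction for *Clec10a* (-0.36), *Mrc1* (-1.78), *Clec4d* (0.33), *Clec4a2* (0.53), *Clec5a* (0.44) and *Clec12a* (0.31). The cause was not tested beyond the smaller number of samples or the shared reads that these settings bring by construction. Depth limits *Mgl2* most, with 3 to 11 counts in the difference.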

Other observations

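In the columns as deposited, which share reads, edgeR called 0 of 10 receptors between Wnt3a and Wnt3a+IL4, with 0 at an unadjusted p under 0.05 and 0 called by DESeq2. *Mrc1* was at 66.5 ± 6.23 CPM in the Wnt3a column and 85.2 ± 7.10 CPM in the Wnt3a+IL4 column (SD, n = 3), *Mgl2* at 1.82 ± 0.57 and 2.5 ± 0.75 CPM, and *Clec7a* at 208 ± 25.6 and 236 ± 38.2 CPM. *Clec4e* was at 294 ± 37.3 and 286 ± 41.5 CPM, *Clec4n* at 250.5 ± 35.9 and 224 ± 34.3 CPM, and *Clec12a* at 303 ± 12.4 and 289 ± 17.1 CPM.

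The count ratio of *Clec4n* to *Clec4a2*, an activating and an inhibitory receptor of the same row of genes on chromosome 6, was 1.61 ± 0.24 in untreated cells and 1.19 ± 0.24 with IL-4. The ratio reached 5.51 ± 1.06 in the difference and 4.23 ± 1.30 in the remainder. Every library of both components lay above every untreated and IL-4 library.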
